A study of Mus musculus with 100 samples.

Results

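The genes described here are 6 transcription factor genes of endoderm, Foxa1, Foxa2, Foxa3, Hnf4a, Sox17 and Sox7. They were taken by name from the RNA tables, which hold 23109 gene-level entries, and all 6 were found in each of the 37 libraries with a table. Levels are given as CPM (the usual depth-scaled read count, here relative to a library's reads over all genes, with 1 transcript kept per gene), and as the deposited RPKM (reads scaled to transcript length and library size) where genes are compared with each other.

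FOXA1, FOXA2 and FOXA3 are forkhead proteins that bind their sites in closed chromatin and act early in endoderm and its derivatives. FOXA2 is also made in the node, the notochord and the floor plate of the neural tube. HNF4A is a nuclear receptor needed in visceral endoderm, the yolk sac layer that secretes apolipoproteins and other plasma proteins before the liver does so. SOX17 and SOX7 are SRY-related factors of subgroup F, together with SOX18, and are made both in endoderm and in vascular endothelium. In extraembryonic endoderm, the lineage of visceral and parietal yolk sac endoderm, these genes lie downstream of GATA6 and GATA4.

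The study concerns the enzymatic activity of MLL3 and MLL4, methyltransferases of histone H3 lysine 4 that act at enhancers. All cultured cells were mouse embryonic stem cells, or were derived from them, and all carried Mll3-/-, so no culture had intact Mll3. Flox cells were Mll3-/-;Mll4flox/flox, and KI cells were Mll3-/-;Mll4KI/KI and came from clones 27 and 48, so each KI library represents a single clone. The labels do not spell out KI. Extraembryonic endoderm cultures (labelled ExEn or XEN) had 5 days with retinoic acid at 0.1 µM together with activin A at 10 ng/mL. Trophectoderm cultures (TE) carried a CDX2 transgene induced for 6 days with 1 µg/mL doxycycline. Embryoid bodies (EBs), floating clumps of differentiating cells, were taken at days 4 and 10 beside undifferentiated stem cells (ESCs, day 0). Neural cultures passed through EBs, received 5 µM retinoic acid after day 4, and were taken as progenitors at day 8 and as neurons at day 16. Whole embryos of stages E8.5 and E9.5 were Mll3flox/KI;Mll4flox/KI;Sox2-Cre, termed KI below, or Mll3flox/KI;Mll4flox/+;Sox2-Cre, the controls. Sox2-Cre recombines in the epiblast and its descendants, so extraembryonic endoderm is not its target, and the controls carry Mll3flox/KI and Cre as well.

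Of 18 groups, 3 held 1 library (flox ESCs and flox EBs at both days), 11 held 2 and the 4 embryo groups held 3. Gene-level totals were 18908148 to 59880727 reads, so that 3 reads, the limit that a count of 0 allows, correspond to 0.159 CPM in the shallowest library and 0.05 CPM in the deepest. This limit covers counting error only. By their titles, KI libraries of a culture group came from different clones, and libraries of an embryo group came from different embryos. For the flox groups, nothing in the labels says that the libraries came from separate cultures. The p-values measure the spread between the libraries of a group, which may be only technical in the flox groups. The 2 flox libraries of neural day 8 lay closest together. Their counts gave 1.5 as the chi-square divided by its degrees of freedom over 15600 genes, against 2.76 to 54.83 for the other pairs, above the value near 1 that sampling noise alone would give, and both entered the fits as separate samples. The molecule label reads poly(A) RNA for ESCs, EBs and neural cultures and total RNA for the remaining samples, and no sequencing batch is given. In all bulk samples, fewer cells of a type and less RNA per cell cannot be told apart. Where groups are said to overlap or not, the share of all genes doing so was not counted, and separation alone is no test.

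Promoter sequences of the members are shown because the members moved together in extraembryonic endoderm. The RefSeq table (build GRCm38.p6) held 7 start sites for 4 of the 6 members, 1 for Foxa1, 3 for Foxa2, 1 for Foxa3 and 2 for Hnf4a. The tables hold a single transcript for each member, so reads from different start sites of a gene were not separated. The 250 bases before each start were searched on both strands for GATAA (GATA factors), TGTTTAC (forkhead factors), AACAATG (SOX factors) and CAAAGTCCA (HNF4 factors). The sequences below hold the 3 matches found, in capitals, and the downstream Hnf4a promoter, which held none. They run 5′ to 3′ on the strand of the gene, from chr12:57546112-57546361 (minus strand) for Foxa1, chr2:148045465-148045714 (minus strand) for the third Foxa2 site, chr2:163506607-163506856 (plus strand) for the upstream Hnf4a site and chr2:163546905-163547154 (plus strand) for the downstream Hnf4a site.
Foxa1: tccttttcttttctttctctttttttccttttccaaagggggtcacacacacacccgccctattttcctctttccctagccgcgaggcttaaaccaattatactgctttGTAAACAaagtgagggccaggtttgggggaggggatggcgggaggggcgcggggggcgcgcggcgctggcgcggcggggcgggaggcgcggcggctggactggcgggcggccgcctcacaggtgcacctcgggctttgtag
Foxa2, site 3: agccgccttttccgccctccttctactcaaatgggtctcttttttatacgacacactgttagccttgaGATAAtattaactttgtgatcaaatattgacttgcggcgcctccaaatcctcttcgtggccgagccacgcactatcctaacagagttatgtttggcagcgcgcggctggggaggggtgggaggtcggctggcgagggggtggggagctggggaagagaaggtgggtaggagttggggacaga
Hnf4a, upstream site: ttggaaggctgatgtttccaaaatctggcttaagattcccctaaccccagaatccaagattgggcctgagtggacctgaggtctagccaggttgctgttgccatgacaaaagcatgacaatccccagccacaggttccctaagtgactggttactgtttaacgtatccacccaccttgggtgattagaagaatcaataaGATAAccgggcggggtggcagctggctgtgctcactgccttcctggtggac
Hnf4a, downstream site: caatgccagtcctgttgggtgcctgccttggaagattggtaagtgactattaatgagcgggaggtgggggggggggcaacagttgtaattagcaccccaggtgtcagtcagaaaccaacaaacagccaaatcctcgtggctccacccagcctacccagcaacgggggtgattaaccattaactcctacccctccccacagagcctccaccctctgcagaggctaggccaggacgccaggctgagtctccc

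In Foxa1 the forkhead letters stood on the opposite strand, 141 bases before the start. In Foxa2 GATAA stood 182 bases before the third start, and in Hnf4a it stood 51 bases before the upstream start. No searched motif overlapped another. The upstream and downstream Hnf4a start sites are 40.3 kb apart, and the downstream promoter is the one known for liver. Among 32851 promoter windows of the same length, 22.6% held GATAA, 3.17% TGTTTAC, 3.29% AACAATG and 0.384% CAAAGTCCA. A match is a run of letters and was not tested as a binding site.

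Extraembryonic endoderm was the culture in which the members were compared first. The flox cultures held RNA of the lineage's regulators, with Gata4 at 176 ± 9.78 CPM and Gata6 at 110.0 ± 0.491 CPM (SD, n = 2), and none of 13 parietal or 9 visceral endoderm markers was at 0. All 6 members were lower in the KI cultures than in flox, with the smallest difference in Foxa2 and the largest in Hnf4a. The comparison sets the KI allele of Mll4 against the flox allele in cells without Mll3.

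Foxa1 stood at 48.6 and 45.8 CPM in the flox libraries, and at 18.3 (clone 27) and 12.4 CPM (clone 48) in KI. Its log2 fold change, KI against flox, was -1.65 (SE 0.20, edgeR adjusted p = 3.38e-05). Foxa2, at 63.0 and 70.1 CPM in flox against 38.5 and 26.6 CPM in KI, had a log2 fold change of -1.06 (SE 0.15, edgeR adjusted p = 0.000199). In both genes clone 48 was the lower of the KI libraries, and neither KI library reached a flox library. Foxa3, the forkhead factor best known from liver, was scarce in flox, at 4.99 and 4.19 CPM. In KI it was at 0.375 and 0.303 CPM, which are 8 and 6 reads, a log2 fold change of -3.76 (SE 0.59, edgeR adjusted p = 0.000191).

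Hnf4a was at 27.1 and 25.9 CPM in the flox libraries, from 560 and 507 reads. Each KI library held 2 reads of it, or 0.0938 and 0.101 CPM. The flox mean was 273 times the KI mean, with a 95% counting interval of 106 to 1000, and the edgeR adjusted p was 7.81e-09. The groups did not overlap, and the KI level lay under the 3 reads that a count of 0 allows. No other member came as close to 0 in KI extraembryonic endoderm.

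Sox17 stood at 70.6 and 82.4 CPM in flox against 11.3 and 11.4 CPM in KI, a log2 fold change of -2.78 (SE 0.17, edgeR adjusted p = 6.28e-08). Sox7, at 31.9 and 32.4 CPM in flox, was at 2.16 and 2.37 CPM in KI, a log2 fold change of -3.85 (SE 0.24, edgeR adjusted p = 2.73e-08). Both KI clones lay far below flox in each SOX gene and close to each other.

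**Figure D1:**
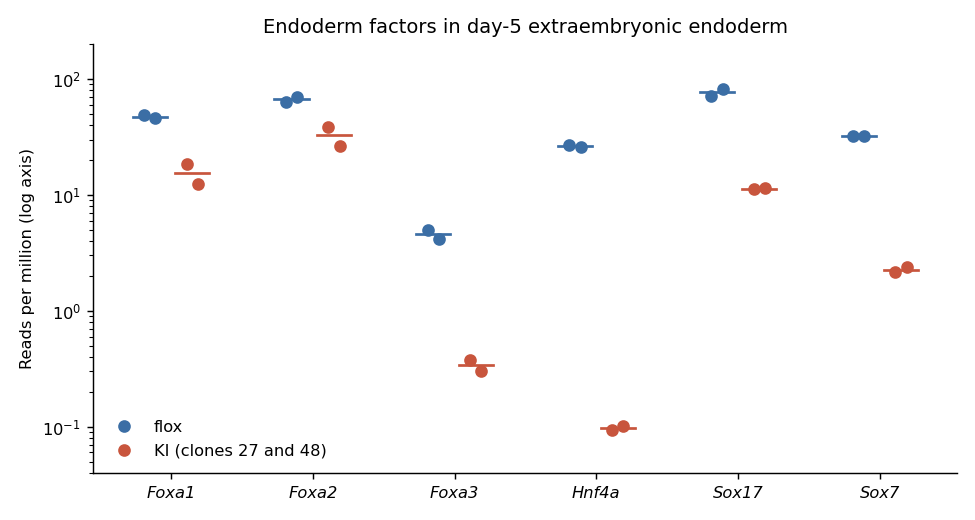
CPM (log axis) of the 6 members in day-5 extraembryonic endoderm, 1 point per library (2 flox, blue, and 2 KI, red) with a bar at each group mean. In every member both KI libraries lie below both flox libraries, and Hnf4a in KI rests on 2 reads per library.

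Lower calls at an adjusted p under 0.05 therefore covered 6 of 6 members, where 17.4% of the 15532 genes tested were called lower. The median log2 fold change of the members was -3.27, beside 6e-04 for all genes tested. In all 11 alternative fits of each member the direction and the call stayed, with the highest adjusted p, 0.00449, in Foxa2.

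On the scale corrected for length, RPKM, the order of the members in flox extraembryonic endoderm was Foxa2 at 24.8 ± 1.91, Sox17 at 19.4 ± 2.14, Foxa1 at 11.7 ± 0.487, Sox7 at 7.80 ± 0.0989, Hnf4a at 4.82 ± 0.151 and Foxa3 at 1.78 ± 0.218 (SD, n = 2). In KI the order was Foxa2 at 12.1 ± 3.09, Foxa1 at 3.83 ± 1.04, Sox17 at 2.88 ± 0.0370, Sox7 at 0.551 ± 0.0389, Foxa3 at 0.132 ± 0.0195 and Hnf4a at 0.0178 ± 0.0010 RPKM. Foxa2 was thus the most abundant member per length in both genotypes, and Sox17 and Hnf4a stood lower in the KI order than in the flox order.

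The other endoderm transcription factors were mostly lower in KI as well. Of 16 listed, 14 were tested, 12 were lower and 1 was higher, with a median log2 fold change of -2.88. The largest decreases were in Otx2 (17.3 to 0.384 CPM, log2 fold change -5.49), Lhx1 (15.4 to 0.758 CPM, -4.37) and Onecut1 (2.39 to 0.148 CPM, -4.01). Gata4 was lower by a log2 fold change of -3.44, from 176 to 16.6 CPM, whereas its relative Gata6 changed from 110.0 to 91.0 CPM (-0.30, edgeR adjusted p = 0.0143). Cebpa, a factor of liver and fat, was the gene called higher, from 1.64 to 8.15 CPM (2.28).

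Among plasma protein and lipoprotein genes known to be controlled by HNF4A, FOXA or other liver factors, 9 of 12 tested genes were lower and none was higher. The list has 19 genes, of which 18 are in the tables. Apob, the main protein of lipoproteins, was at 515 CPM in flox against 2 reads in KI, a ratio of 10600 with a 95% counting interval of 2930 to 87400. Ttr, which carries thyroid hormone and retinol-binding protein, was at least 144-fold lower, and Apoa1 at least 53.8-fold lower. Both had no KI read, and the floor was 3 reads in each KI library. The list's median log2 fold change was -6.93 as fitted and -3.82 with such genes held at their bound.

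Visceral endoderm genes beyond these followed the same direction, with 8 of 9 tested genes lower, none higher and a median of -4.30. Cubn, an uptake receptor of the yolk sac surface, was at 452 CPM in flox and 2.25 CPM in KI (log2 fold change -7.68), and Ihh, a hedgehog ligand, was at 10.6 and 0.339 CPM (-4.97). Pla2g12b was at 5.00 CPM in flox against 2 reads in KI, a ratio of 103 (95% counting interval 28.2 to 858). Parietal endoderm and basement membrane genes were lower in 9 of 13 and higher in none, with a median of -0.60. The 3 largest changes among them were in Pth1r (-2.83), Lama1 (-2.79) and Stra6 (-1.95). Gut endoderm genes gave 2 higher and 1 lower among 8 tested.

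Markers of other cell types moved beside the members. Of 11 tested trophoblast genes, 7 were higher and 1 lower in KI extraembryonic endoderm, led by Krt7 (2.36), Tfap2c (2.14) and Gata3 (1.84), and their summed level was 3155 to 3167 CPM in flox and 4238 to 5145 CPM in KI. Tpbpa, a listed trophoblast gene, had no read in either group, and Elf5 had none in KI. Both were named after their values were seen. Pluripotency genes gave 3 higher and 3 lower among 11, with sums of 147 to 162 CPM in flox and 125 to 128 CPM in KI. Endothelial genes gave 2 lower and 1 higher among 9, with sums of 130 to 135 and 60.2 to 76.9 CPM. Neural genes gave 4 higher and 2 lower among 9, and none of 7 floor plate and notochord genes was called. The part of other cell types in the members' decrease was not tested.

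**Figure D2:**
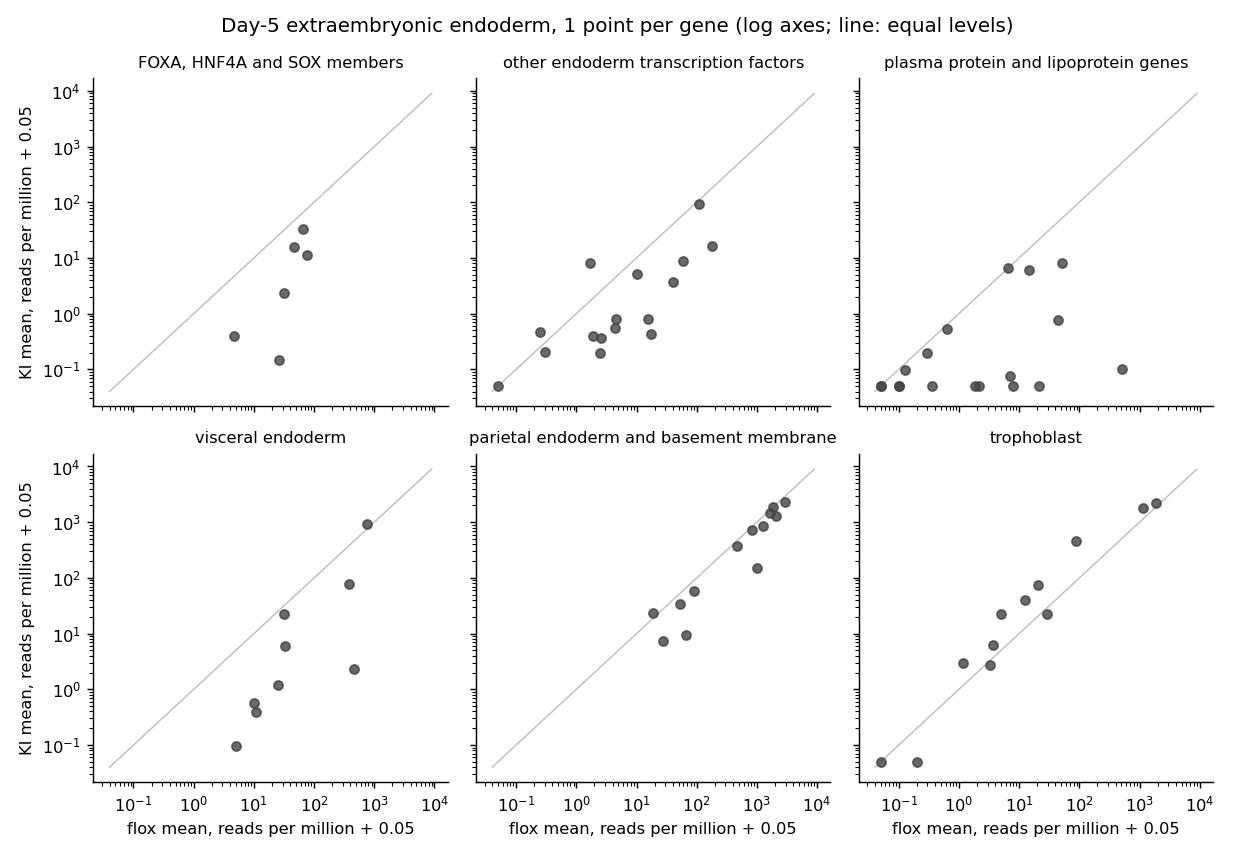
Mean CPM, with 0.05 added, of each gene of 6 lists in flox (x) and KI (y) day-5 extraembryonic endoderm, on log axes, with a line of equal levels. The members, the other endoderm transcription factors, the plasma protein genes and the visceral endoderm genes lie mostly below the line.

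Trophectoderm cultures served as the second extraembryonic lineage. Flox trophectoderm had lower levels of every member than flox extraembryonic endoderm. Between KI and flox trophectoderm only Sox17 was called, as lower, where 24.2% of the tested genes were called lower. In the flox trophectoderm libraries the CPM values were 1.15 and 0.614 for Foxa1, 8.06 and 6.22 for Foxa2, 0.864 and 1.34 for Foxa3, 8.56 and 6.64 for Sox17, and 0.658 and 0.230 for Sox7. Hnf4a had 2 reads and 0 reads. Against these, flox extraembryonic endoderm was higher in 6 of 6 members, where 32.5% of the tested genes were called higher. The log2 differences were 6.27 (SE 0.29) in Sox7, 5.83 (SE 0.27) in Foxa1, 3.42 (SE 0.17) in Sox17, 3.31 (SE 0.17) in Foxa2 and 2.14 (SE 0.50) in Foxa3. Hnf4a differed by a ratio of 668, with a 95% counting interval of 184 to 5520. Leaving out 1 flox trophectoderm library gave Sox7 log2 differences of 7.17, without the first, and 5.67, without the second. Beside them, 13 of 13 parietal and 7 of 9 visceral endoderm genes were higher and none was lower in flox extraembryonic endoderm, and 11 of 11 pluripotency genes were lower. Trophoblast genes gave 2 higher and 7 lower among 11, gut endoderm genes 6 and 2 among 8, other endoderm transcription factors 11 and 2 among 14, and plasma protein and lipoprotein genes 10 and 1 among 12. Endothelial genes gave 2 higher and 3 lower among 9, floor plate and notochord genes 6 and 1 among 7, and neural genes 5 and 3 among 9. Their part in the members' differences was not tested.

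In trophectoderm Sox17 was at 3.02 and 4.86 CPM in KI, below both flox libraries, a log2 fold change of -0.91 (SE 0.20, edgeR adjusted p = 0.002). The other members were not called, and 24.2% of the tested genes were called lower. Foxa2 was at 8.94 and 8.96 CPM in KI (log2 fold change 0.36, SE 0.19, edgeR adjusted p = 0.129), Foxa1 at 0.908 and 1.45 CPM, Foxa3 at 0.327 and 1.23 CPM, and Sox7 at 0.218 and 0.290 CPM. Hnf4a had no KI read, so no fold is given. Sox7 passed the test without the second flox library (-1.36) and Foxa3 passed without clone 48 (-1.71), so in these 2 genes 1 library decides the call. Trophoblast genes gave 9 higher and 1 lower among 11 in KI trophectoderm (median log2 fold change 1.36), and pluripotency genes were lower in 9 of 11 with none higher (-1.33). Neural genes were lower in 5 of 9 with none higher, floor plate and notochord genes gave 3 higher and 4 lower among 7, and endothelial genes 2 and 2 among 9. Parietal endoderm genes gave 6 higher and 5 lower among 13, visceral endoderm genes 4 and 3 among 9, gut endoderm genes 2 and 2 among 8, other endoderm transcription factors 6 and 1 among 14, and plasma protein and lipoprotein genes 1 and 1 among 12. The part of these cell types in the members' values was not tested.

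The difference between the KI effects of the 2 lineages was tested as an interaction. It was lower in extraembryonic endoderm for 5 members, where 18.3% of the tested genes were called in that direction. The differences in log2 fold change were -3.29 (SE 0.81) in Foxa3, -3.11 (SE 0.63) in Sox7, -2.11 (SE 0.43) in Foxa1, -1.87 (SE 0.26) in Sox17 and -1.42 (SE 0.24) in Foxa2, with edgeR adjusted p-values from 0.000127 to 0.00579. Hnf4a is left out, because it has no fold in trophectoderm. Without clone 48 of trophectoderm the Foxa3 difference was -2.05 and lost its call (edgeR adjusted p = 0.0717), and without clone 27 it was -3.93. The Sox7 difference was -3.9985 without the first flox library of trophectoderm and -2.50 without the second. Gata4 (log2 fold change 1.04) and Gata6 (0.34), both lower in KI extraembryonic endoderm, were called higher in KI trophectoderm. By the same interaction visceral endoderm genes gave 1 higher and 7 lower among 9, parietal endoderm genes 0 and 7 among 13, trophoblast genes 1 and 6 among 11, other endoderm transcription factors 1 and 9 among 14, plasma protein and lipoprotein genes 0 and 6 among 12, and endothelial genes 0 and 3 among 9. Pluripotency genes gave 6 higher and 1 lower among 11, neural genes 3 and 1 among 9, gut endoderm genes 2 and 3 among 8, and floor plate and notochord genes 2 and 1 among 7. Their part in the members' differences was not tested.

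Embryoid bodies gave the opposite direction at day 10. At each day 1 flox library stood against 2 KI clones, so single days have no test, and a gene was counted when its ratio to flox, with 0.5 CPM added, passed 2-fold the same way in clone 27 and in clone 48. At day 10, 5 of 6 members were counted as higher in KI and none as lower, where 3.5% of the measured genes were counted as higher.

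Sox17 was at 19.5 CPM in flox EBs of day 10, against 129 CPM in clone 27 and 92.7 CPM in clone 48. Hnf4a was at 4.73 CPM against 34.2 and 29.5 CPM. Foxa1 was at 12.1 CPM in flox and at 49.7 and 36.5 CPM in KI. Both clones thus exceeded flox in each of these 3 genes, with clone 27 above clone 48. Foxa2 was at 7.49 CPM in flox against 37.9 and 34.3 CPM, and Foxa3 at 1.78 CPM against 14.2 and 13.0 CPM. Sox7 was the exception, at 14.0 CPM in flox and at 10.3 and 8.54 CPM in KI, a difference under 2-fold.

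Listed genes of visceral endoderm and its products were counted in the same direction at day 10. Of 9 visceral endoderm genes measured, 5 were higher and none was lower, led by Cited1 at 4.38 CPM in flox against 72.1 and 70.6 CPM, Amn at 0.582 against 8.08 and 10.1 CPM, and Ihh at 3.65 against 28.5 and 24.4 CPM. Of 11 plasma protein and lipoprotein genes, 5 were higher and none was lower, led by Ttr, at 10.0 CPM against 74.2 and 64.6 CPM, and Rbp4, the retinol carrier, at 59.4 CPM against 344 and 261 CPM. Among other endoderm transcription factors, 4 of 13 were higher and 1 lower, and Gata5, the one lower, was at 44.7 CPM in flox and at 2.97 and 3.33 CPM in KI. Gut endoderm genes were higher in 4 of 9 and lower in none, and parietal endoderm genes gave 3 higher and 2 lower among 13. Among markers of other cell types, Sox18 was the only one of 12 endothelial genes counted, at 18.3 CPM in flox and 7.98 and 6.79 CPM in KI, and 2 of 9 trophoblast genes were higher and none was lower. Pluripotency genes gave 1 higher and 0 lower among 10, neural genes 0 and 2 among 9, and floor plate and notochord genes 0 and 1 among 7. Their part in the members' increase was not tested.

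At day 4 the order was not that of day 10. Foxa2 was at 25.4 CPM in flox against 8.86 and 9.37 CPM in KI, the 1 member counted, where 4.43% of the measured genes were counted as lower. Sox17 was at 27.3 CPM against 17.9 and 13.4 CPM, Foxa1 at 6.74 against 3.56 and 2.49 CPM, and Hnf4a at 1.23 against 0.457 and 0.588 CPM, all lower in both clones but not past 2-fold in both. Foxa3 was at 1.84 CPM against 1.96 and 1.76 CPM. Sox7 was at 0.664 CPM against 1.32 and 1.31 CPM. Beside these values, 7 of 12 parietal endoderm genes, 4 of 13 other endoderm transcription factors, 3 of 6 gut endoderm genes and 2 of 5 visceral endoderm genes were counted as lower at day 4, and none of these as higher. Of other cell types, 4 of 10 trophoblast genes and 3 of 7 endothelial genes were lower, 1 endothelial gene was higher, and 3 of 11 pluripotency genes and 2 of 8 neural genes were higher. Of 6 floor plate and notochord genes 1 was lower, and none of 5 plasma protein and lipoprotein genes was counted. Their part in the members' values was not tested. In ESCs only 3 members had enough reads to be measured. Sox7 was higher in KI, at 5.47 and 4.25 CPM against 1.85 CPM, and Hnf4a was lower, at 0 and 0.210 CPM against 1.64 CPM, where 5.18% and 2.50% of the measured genes were counted in these directions. Foxa3 was at 3.27 and 2.23 CPM in KI and at 2.43 CPM in flox. Among the lists in ESCs, visceral endoderm genes gave 2 higher and 0 lower among 5, neural genes 2 and 0 among 7, gut endoderm genes 1 and 1 among 5, other endoderm transcription factors 1 and 0 among 8, parietal endoderm genes 0 and 1 among 9, and pluripotency genes 0 and 1 among 11. Of 3 plasma protein and lipoprotein genes 1 was higher, and no endothelial, trophoblast or floor plate gene was counted.

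**Figure D3:**
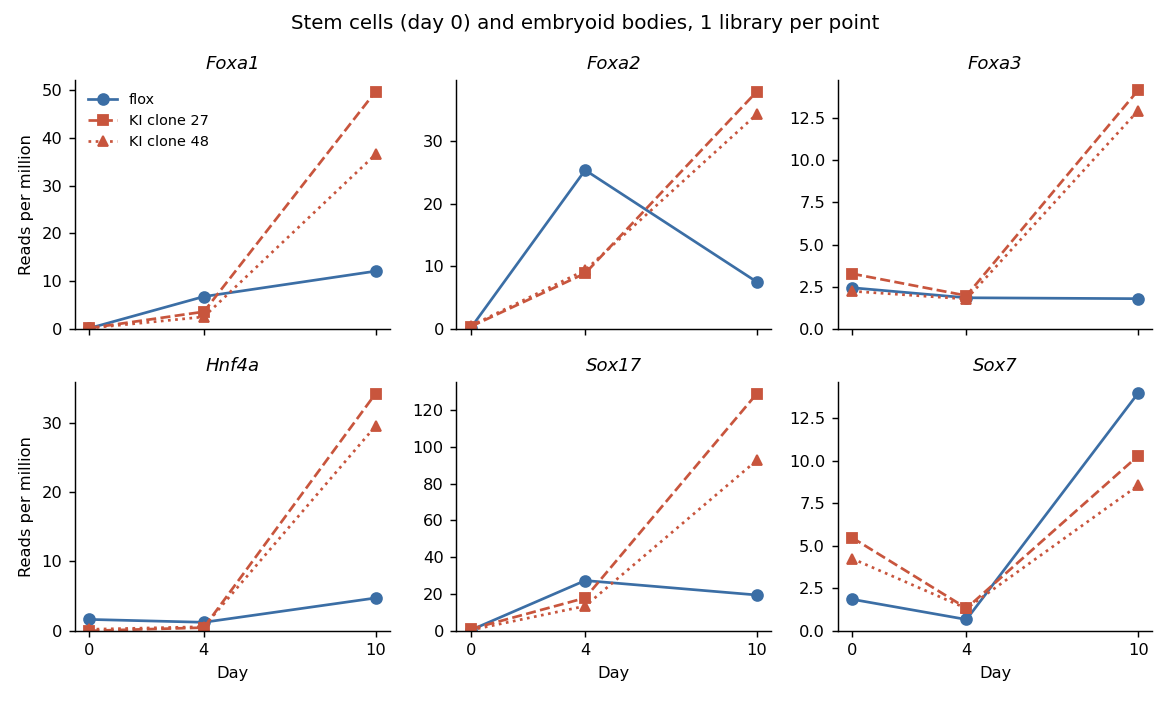
CPM (linear axes) of the 6 members in stem cells (day 0) and embryoid bodies at days 4 and 10, 1 library per point, with flox in blue and KI clones 27 and 48 in red. Both KI clones lie above flox at day 10 in 5 members, and both lie below flox at day 4 in Foxa1, Foxa2, Hnf4a and Sox17.

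Averaged over the 3 days, the KI effect was called in none of the 6 members by edgeR, with none at an unadjusted p under 0.05 either, where 0.73% of all tested genes were called. DESeq2 called none of the members. Foxa2 passed when the flox library of day 4 was left out, with a log2 fold change of 2.22. Within the KI clones the days could be tested. From ESCs to day 4, Foxa2 (log2 change 4.39, SE 0.20), Sox17 (4.47, SE 0.37) and Foxa1 (a ratio of 23.9, 95% counting interval 10.7 to 66.2) rose, where 26.5% of the tested genes rose. Sox7 fell by 1.97 on the log2 scale (SE 0.24), where 23.8% of the tested genes fell. Without clone 27 of the ESCs the Sox17 change was 5.24. Foxa3 and Hnf4a were not called (edgeR adjusted p = 0.0614 and 0.0519). From day 4 to day 10 all 6 rose, where 36.7% of the tested genes did. The log2 changes were 5.83 (SE 0.41) in Hnf4a, 3.75 (SE 0.22) in Foxa1, 2.78 (SE 0.24) in Foxa3, 2.75 (SE 0.24) in Sox7, 2.74 (SE 0.25) in Sox17 and 1.90 (SE 0.13) in Foxa2, with edgeR adjusted p-values from 6.88e-06 to 0.000129. Other cell types moved beside them. All 12 endothelial genes rose from day 4 to day 10 (median log2 change 4.10), among them Sox18 (3.21), and their sums went from 92.5 to 98.0 CPM to 539 to 653 CPM. Parietal endoderm genes rose in 11 of 13 and none fell. Visceral endoderm genes gave 8 higher and 1 lower among 9, plasma protein and lipoprotein genes 11 and 1 among 13, trophoblast genes 7 and 2 among 10, other endoderm transcription factors 9 and 5 among 15, gut endoderm genes 4 and 3 among 8, and floor plate and notochord genes 3 and 2 among 7. Pluripotency genes gave 1 higher and 9 lower among 11, and neural genes 1 and 7 among 9. From ESCs to day 4, parietal endoderm genes gave 7 higher and 3 lower among 13, gut endoderm genes 5 and 1 among 8, trophoblast genes 6 and 2 among 10, endothelial genes 4 and 2 among 12, and other endoderm transcription factors 10 and 3 among 15. Visceral endoderm genes gave 3 higher and 0 lower among 9, plasma protein and lipoprotein genes 2 and 1 among 13, floor plate and notochord genes 4 and 1 among 7, neural genes 4 and 4 among 9, and pluripotency genes 0 and 9 among 11. Their part in the members' changes over the days was not tested.

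In neural progenitors of day 8 the members split. Foxa1 was higher in KI, and Sox17, Sox7 and Hnf4a were lower. Foxa1 was at 7.67 and 7.06 CPM in flox against 31.7 and 23.5 CPM in KI, a log2 fold change of 1.94 (SE 0.16, edgeR adjusted p = 3.9e-06). Foxa2 was at 3.83 and 4.12 CPM against 6.36 and 6.92 CPM (0.77, SE 0.26, edgeR adjusted p = 0.054). Its groups did not overlap, and it passed in 4 alternative fits, including DESeq2 (adjusted p = 0.0454) and the fit of these 4 libraries alone (edgeR adjusted p = 0.00366). Foxa3 was at 0.626 and 0.332 CPM in flox and at 0.253 and 0.368 CPM in KI, with overlapping groups (edgeR adjusted p = 0.442).

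Sox17 was at 13.5 and 14.7 CPM in flox progenitors against 2.85 and 2.97 CPM in KI, a log2 fold change of -2.24 (SE 0.17, edgeR adjusted p = 2.9e-06). Sox7, at 7.51 and 7.25 CPM against 3.84 and 2.15 CPM, had a log2 fold change of -1.28 (SE 0.24, edgeR adjusted p = 0.00208). Hnf4a, at 0.904 and 0.938 CPM against 0.276 and 0.123 CPM, had -2.19 (SE 0.46, edgeR adjusted p = 0.00448), which was lost without clone 48 (-1.71, edgeR adjusted p = 0.0802) and was -2.84 without clone 27. By direction, 1 member was called higher and 3 lower, where 6.3% and 13.2% of the tested genes were called.

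Genes of other cell types moved beside each side of this split. All 12 tested endothelial genes were lower in KI progenitors, with a median log2 fold change of -2.48 and sums of 178 to 179 CPM in flox against 38.0 to 46.2 CPM in KI. Sox18, the third gene of subgroup F, was the most changed of them (-3.64, from 5.44 to 0.433 CPM), followed by Tie1 (-3.41) and Tek (-2.91), receptors of the vascular lining. Floor plate and notochord genes gave 4 higher and 1 lower among 9, with Ntn1 (1.62), Nkx6-1 (1.01) and Nkx2-2 (5 reads in flox, a ratio of 56.9 with a 95% counting interval of 24.1 to 177) higher, and their sums were 91.2 to 93.0 CPM in flox against 201 to 242 CPM in KI. Plasma protein and lipoprotein genes were lower in 6 of 11 tested, led by Ambp (-4.64). Gata4 (-2.51) and Gata6 (-1.64) were lower. Parietal endoderm genes gave 1 higher and 9 lower among 13 (median -0.98), pluripotency genes 2 and 4 among 8 (-1.04), visceral endoderm genes 2 and 3 among 8, and other endoderm transcription factors 2 and 4 among 12. Gut endoderm genes gave 2 higher and 1 lower among 6, trophoblast genes 2 and 1 among 8, and neural genes 3 and 4 among 10. The part of these cell types in the members' changes was not tested.

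By day 16 the neural cultures held little of any member. All 6 were lower than at day 8 in flox, where 38.7% of the tested genes were lower, and in KI, where 39.2% were. Endothelial genes were lower in 11 of 12 in flox (median log2 change -4.15) and in 8 of 12 in KI (-2.47), and none was higher. Gut endoderm genes were lower in 4 of 6 in flox (-2.60) and in 5 of 6 in KI (-4.28), with none higher. Trophoblast genes were lower in 5 of 8 in flox and in 6 of 8 in KI, with 1 higher in each. Parietal endoderm genes moved the other way on balance, with 8 higher and 3 lower among 13 in flox (0.38) and 6 higher and 3 lower in KI (0.42). Visceral endoderm genes gave 2 higher and 3 lower among 8 in flox and 1 and 4 in KI, other endoderm transcription factors 1 and 8 among 12 in flox and 2 and 8 in KI, and plasma protein and lipoprotein genes 2 and 6 among 11 in flox and 1 and 6 in KI. Neural genes gave 5 higher and 5 lower among 10 in both, floor plate and notochord genes 2 and 4 among 9 in flox and 1 and 5 in KI, and pluripotency genes 3 and 4 among 8 in flox and 2 and 5 in KI. The part of these lists in the members' decrease was not tested. Sox17 fell by 7.49 on the log2 scale in flox (SE 0.29) and by 5.12 in KI (SE 0.32), to 1 to 6 reads per library, and the flox log2 change was -8.92 without the first flox library of day 16. The Hnf4a decrease in KI, a ratio of 11.1 with a 95% counting interval of 2.66 to 98.6, lost its call without clone 27 of day 8 (edgeR adjusted p = 0.0917) or without clone 48 of day 16 (edgeR adjusted p = 0.0706). Foxa1 stood at day 16 at 0.509 and 0.513 CPM in flox and at 1.83 and 1.40 CPM in KI, a log2 fold change of 1.86 (SE 0.25, edgeR adjusted p = 9.96e-05). Foxa2 was at 0.145 and 0.102 CPM against 0.851 and 0.267 CPM (2.29, SE 0.54, edgeR adjusted p = 0.0047), and without the second flox library its edgeR adjusted p was 0.0513. Leaving out 1 library gave Foxa2 log2 fold changes from 1.28, without clone 27, to 2.91, without clone 48. These 2 calls stand beside 27.1% of the tested genes called higher. Beside them, floor plate and notochord genes gave 6 higher and 2 lower among 9 at day 16, neural genes 6 and 3 among 10, and endothelial genes 2 and 2 among 12. Parietal endoderm genes were lower in 12 of 13, trophoblast genes in 5 of 8 and pluripotency genes in 5 of 8, and none of these was higher. Visceral endoderm genes gave 1 higher and 5 lower among 8, other endoderm transcription factors 1 and 4 among 12, gut endoderm genes 0 and 1 among 6, and plasma protein and lipoprotein genes 0 and 1 among 11. The part of these cell types in the 2 calls was not tested. Sox7 and Sox17 were not called, and Foxa3 and Hnf4a had 0 to 3 reads per library, so no fold is given for them.

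The KI effect differed between the 2 neural days in Sox17 alone among the members with a fold in both, where 19.2% of the tested genes had a higher effect at day 16. The interaction was 2.37 (SE 0.71, edgeR adjusted p = 0.0229). It rests on the few reads of day 16, and was lost without the second flox library of day 16 (1.83, edgeR adjusted p = 0.0626) or without its clone 27 (1.92, edgeR adjusted p = 0.192). Without the first flox library of day 16 it was 3.80. Of the 12 endothelial genes, 8 had a higher KI effect at day 16 as well, among them Emcn (3.76) and Sox18 (2.68), and Kdr, named after its value was seen, had a lower one. Neural genes gave 5 higher and 2 lower among 10, trophoblast genes 0 and 5 among 8, parietal endoderm genes 0 and 4 among 13, and visceral endoderm genes 0 and 3 among 8. Other endoderm transcription factors gave 1 higher and 1 lower among 12, plasma protein and lipoprotein genes 0 and 1 among 11, gut endoderm genes 0 and 2 among 6, pluripotency genes 0 and 2 among 8, and floor plate and notochord genes 1 and 2 among 9. The part of these lists in the Sox17 difference was not tested.

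In whole embryos the SOX genes were higher in KI at both stages, and the FOXA genes and Hnf4a were not called at either. At E8.5 Sox17 was at 12.7, 17.2 and 9.86 CPM in controls and at 24.4, 23.8 and 26.2 CPM in KI embryos, a log2 fold change of 0.90 (SE 0.15, edgeR adjusted p = 0.00135). Sox7 was at 10.1, 12.8 and 9.96 CPM against 14.9, 14.7 and 19.0 CPM (0.56, SE 0.16, edgeR adjusted p = 0.0415). In both genes all 3 KI embryos exceeded all 3 controls. The Sox7 call was lost when any 1 of 5 of the 6 embryos was left out, with the highest adjusted p, 0.206, without the third KI embryo. Higher calls covered 2 of 6 members, where 3.63% of the tested genes were called higher. With the number of the embryo titles as a block, both genes stayed called while the count over all genes went from 843 to 1304.

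The other members overlapped between the genotypes at E8.5. Foxa1 was at 22.3, 13.2 and 9.10 CPM in controls and at 16.1, 9.498 and 14.9 CPM in KI (log2 fold change -0.13, SE 0.27). Foxa2 was at 17.5, 8.67 and 8.96 CPM against 13.7, 11.8 and 12.2 CPM (0.11, SE 0.25). Hnf4a spread widely within both groups, at 10.5, 1.19 and 5.43 CPM in controls and at 10.7, 0.591 and 1.87 CPM in KI (-0.36, SE 0.99). Foxa3 was at 1.09, 1.12 and 1.24 CPM against 1.90, 0.364 and 0.890 CPM (-0.13, SE 0.56). The summed plasma protein and lipoprotein list, the products of yolk sac endoderm among others, varied too, from 84.3 to 544 CPM in controls and from 28.4 to 430 CPM in KI embryos.

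At E9.5 Sox17 was at 11.04, 12.8 and 11.4 CPM in controls against 26.3, 25.2 and 23.9 CPM in KI, a log2 fold change of 1.09 (SE 0.15, edgeR adjusted p = 2.86e-05). Sox7 was at 7.74, 7.64 and 9.13 CPM against 13.1, 16.8 and 13.8 CPM (0.83, SE 0.16, edgeR adjusted p = 0.000639). The genotypes did not overlap in either gene. Foxa1 was at 9.85, 11.8 and 13.7 CPM in controls and at 19.5, 19.3 and 18.4 CPM in KI, again without overlap, but with a log2 fold change of 0.70 (SE 0.27) its edgeR adjusted p was 0.0766. Foxa3 (0.159, 0.965 and 0.358 CPM against 1.24, 1.37 and 1.64 CPM) and Hnf4a (1.07, 1.71 and 2.55 CPM against 4.51, 2.62 and 4.02 CPM) did not overlap either and were not called (edgeR adjusted p = 0.0613 and 0.495). Foxa2 overlapped, at 11.4, 11.7 and 10.6 CPM against 18.9, 20.4 and 11.4 CPM (edgeR adjusted p = 0.0896). Separation of the genotypes was not counted over all genes. Higher calls thus covered 2 of 6 members, where 14.6% of the tested genes were called higher, and 5 of 6 in a fit of the E9.5 libraries alone, where 14.6% of the tested genes were as well.

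The KI effect on the members was not called as different between the stages by edgeR, with none at an unadjusted p under 0.05. Sox17 differed by 0.20 (SE 0.21) and Sox7 by 0.27 (SE 0.22). DESeq2 called none, and 6.63% of all tested genes were called. With the title number as a block, Hnf4a alone was called as different (1.85, edgeR adjusted p = 0.0193). From E8.5 to E9.5 in controls Sox7 was called lower (-0.49, SE 0.16, edgeR adjusted p = 0.0318), where 12.1% of the tested genes were, and the other members were not called. Endothelial genes gave 5 higher and 2 lower among 12 in that comparison, visceral endoderm genes 0 and 7 among 9, trophoblast genes 0 and 6 among 11, parietal endoderm genes 3 and 4 among 13, and gut endoderm genes 1 and 4 among 10. Neural genes gave 7 higher and 0 lower among 10, floor plate and notochord genes 3 and 0 among 10, pluripotency genes 3 and 4 among 7, other endoderm transcription factors 2 and 6 among 15, and plasma protein and lipoprotein genes 3 and 7 among 16. What these genes contribute to the Sox7 call was not tested. The Sox7 call was lost in 4 of 13 alternatives, with adjusted p-values of up to 0.142.

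Endothelial genes, with which the SOX genes share a cell type, were higher in 6 of 12 at E8.5 and in 4 of 12 at E9.5, and none was lower. At E8.5 these were led by Cldn5 (1.14), Pecam1 (1.09) and Sox18 (0.91), and at E9.5 by Flt1 (0.83), Tek (0.57) and Esam (0.56), while Sox18 was not called at E9.5 (0.29). Summed, the list stood at 383 to 459 CPM in controls and 514 to 715 CPM in KI at E8.5, and at 419 to 458 and 536 to 593 CPM at E9.5. Gata6 was higher at both stages (0.60 and 1.70), and Gata4 was called at E9.5 (1.49). Visceral endoderm genes were not called at E8.5, with sums of 189 to 443 CPM in controls and 185 to 376 CPM in KI, and 1 of 9, Bmp2, was higher at E9.5 (1.25). Trophoblast genes stood at 657 to 798 CPM in controls and 985 to 1191 CPM in KI at E8.5, and at 215 to 439 and 643 to 674 CPM at E9.5, with Tpbpa at 0 throughout. By the test they gave 2 higher and 1 lower among 11 at E8.5 and 5 higher and 0 lower at E9.5. Of 10 neural genes, 3 were lower at E8.5 and 10 at E9.5, and none was higher. Parietal endoderm genes gave 4 higher and 1 lower among 13 at E8.5 and 6 and 2 at E9.5, gut endoderm genes 3 and 1 among 10 at E8.5 and 5 and 2 at E9.5, and other endoderm transcription factors 2 and 1 among 15 at E8.5 and 6 and 0 at E9.5. Floor plate and notochord genes gave 0 higher and 1 lower among 10 at E8.5 and 2 and 3 at E9.5, pluripotency genes 0 and 0 among 7 at E8.5 and 1 and 2 at E9.5, and plasma protein and lipoprotein genes 0 and 0 among 16 at E8.5 and 1 and 0 at E9.5. The part of these cell types in the members' increase was not tested.

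**Figure D4:**
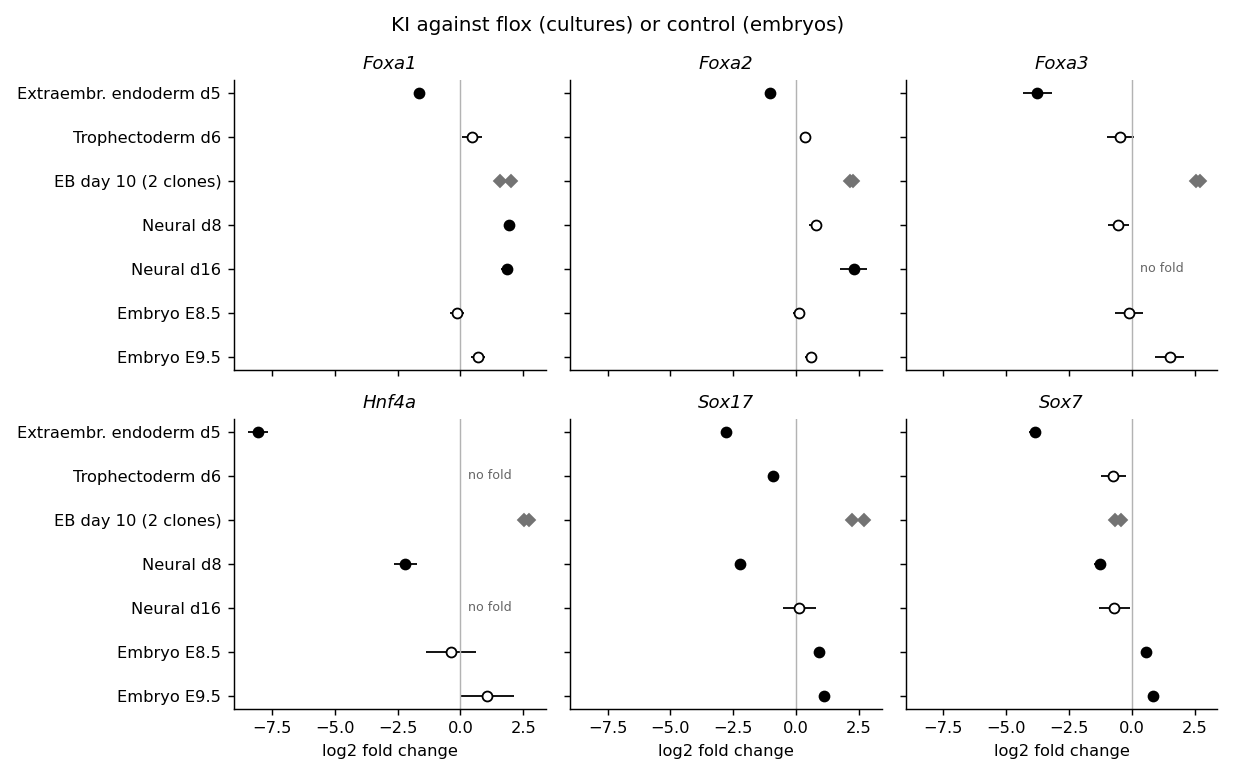
Log2 fold changes of each member, KI against flox in cultures and KI against control in embryos, with SE bars, filled where called (edgeR adjusted p under 0.05). Grey diamonds are the 2 KI clones of day-10 embryoid bodies against 1 flox library, with 0.5 CPM added and no test. The members lie left of 0 in extraembryonic endoderm, whereas 5 of them lie right of it in embryoid bodies of day 10.

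Over all 18 groups, Foxa1, Foxa2 and Sox7 had their highest mean in flox extraembryonic endoderm, and Foxa3, Hnf4a and Sox17 had it in KI EBs of day 10. These groups carry different RNA labels, which cannot be told apart from the cultures. For Foxa1 the first 2 groups, flox extraembryonic endoderm (47.2 CPM) and KI EBs of day 10 (43.1 CPM), overlapped in range, followed by KI neural progenitors (27.6 CPM). In Foxa2 the first group (66.6 CPM) stood apart from KI EBs of day 10 (36.1 CPM) and KI extraembryonic endoderm (32.5 CPM), which overlapped. Foxa3 reached 13.6 CPM in KI EBs of day 10, apart from 4.59 CPM in flox extraembryonic endoderm, and was between 0 and 2.75 CPM on average in all others.

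For Hnf4a the order was KI EBs of day 10 (31.9 CPM), flox extraembryonic endoderm (26.5 CPM) and control embryos of E8.5 (5.71 CPM), the first 2 apart from each other. Sox17 followed the same first steps, at 111 and 76.5 CPM, with flox EBs of day 4 next at 27.3 CPM. In Sox7, flox extraembryonic endoderm (32.1 CPM) stood apart from KI embryos of E8.5 (16.2 CPM), which overlapped with those of E9.5 (14.6 CPM). Of the 17 pairs of neighbours in each order, 7 overlapped in range in Foxa1, 9 in Foxa2, 9 in Foxa3, 9 in Hnf4a, 6 in Sox17 and 7 in Sox7. The lowest groups were ESCs for Foxa1 (0.106 CPM in flox) and Foxa2 (0.106 CPM in flox), neural cultures of day 16 for Foxa3, Sox17 and Sox7, and KI trophectoderm, with no read, for Hnf4a.

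**Figure D5:**
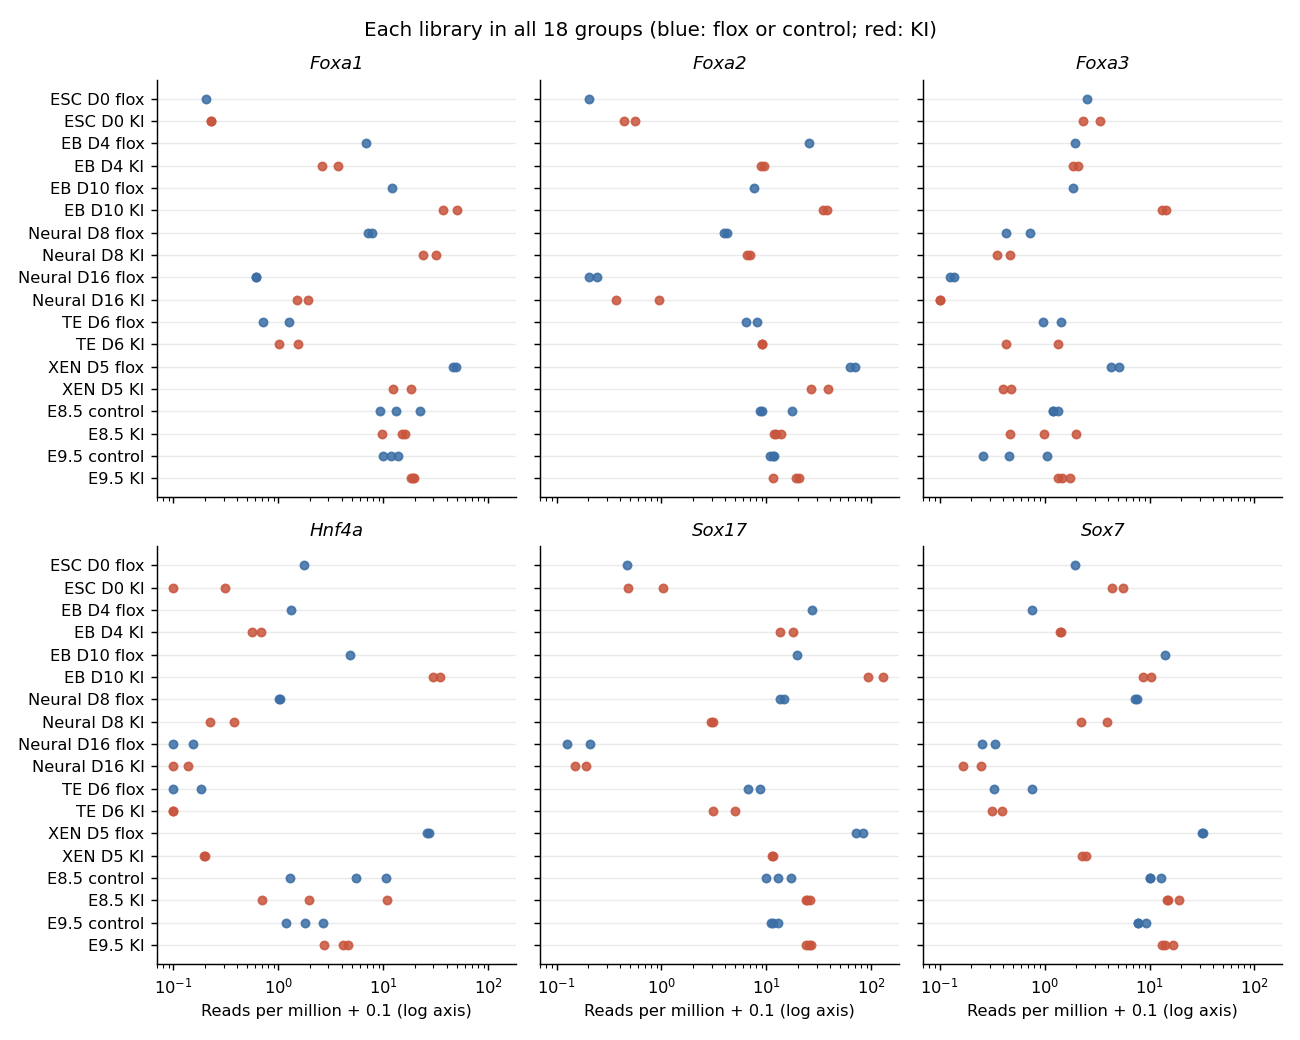
CPM with 0.1 added (log axis) of the 6 members in each library of the 18 groups, with flox or control in blue and KI in red. The highest points are flox extraembryonic endoderm or KI embryoid bodies of day 10 in every member, and the lowest are stem cells, neural cultures of day 16 or trophectoderm.

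The members resembled one another to different degrees over the 18 group means of log2 CPM with 0.5 added. Pearson's r was highest between Foxa2 and Sox17 (0.917) and between Foxa1 and Foxa2 (0.823), and lowest between Foxa1 and Foxa3 (0.27). Each value describes 18 groups, of which the culture groups share cell lines, and carries no test. Among 14244 genes that reached 5 CPM in a group, the 3 most like Hnf4a were Habp2 (0.945), Apob (0.945) and Hkdc1 (0.933), of which Apob is the apolipoprotein described above. Among those most like Foxa1 were Hmga2-ps1 (0.906) and Slc7a6 (0.883). Foxa2 had Tpm4 (0.944), Fermt1 (0.93) and Cnn2 (0.929), and Foxa3 had Epas1 (0.881), Dnajc22 (0.873) and Pga5 (0.858). Sox17 had Fzd7 (0.939), Clic6 (0.933) and Nfxl1 (0.926), and Sox7 had Lta4h (0.881), Angpt2 (0.858) and Rbm22 (0.83).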

How the data were processed

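The sources are 37 RNA-seq tables of reads and RPKM per transcript, from 18 groups of a series of 100 samples; the other 63 samples were not analysed here. Per the file headers, the deposited tables hold a read count and an RPKM for each of 29082 RefSeq transcripts, as the authors computed them. Libraries were poly(A)-selected per the labels' protocols. The submitters' processing notes list bcl2fastq, Bowtie2, STAR, SICER 1.1 and build mm9 without roles, and the counter and its strand setting are not given in the sources used here, so reads of overlapping or antisense genes could not be separated.

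Of the transcripts, 28436 matched a gene symbol, and the transcript with most reads over all libraries was kept for each of 23109 entries, which held 70.5% to 74.4% of each table's reads. The quasi-likelihood test of edgeR 4.0.16, run in R 4.3.3 with TMM scaling and a robust fit, was applied to the counts of genes kept by filterByExpr (minimum 10 reads), with Benjamini-Hochberg adjustment over all genes tested within each comparison and a threshold of 0.05. One fit covered both extraembryonic lineages, one the neural cultures, one the embryos, one the EB course with day as a factor and one its KI libraries. The SE of a log2 fold change was derived from it and the root of its F statistic. Where a group had 3 reads or fewer per library, a bound at 3 reads in each of its libraries or a ratio with an exact 95% counting interval replaces the fold. The reads carry no molecular identifiers and are not independent molecules, so these intervals cover counting error only.

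The members and lists were chosen with earlier results of these data known. Named genes are the members, Gata4, Gata6 and Sox18, and at most 3 called genes of largest change per list, the 3 genes most like each member over the groups, and markers at 0 (Tpbpa, Elf5, named after their values were seen); 1 further gene is not reported here. Embryos with the same title number at E8.5 deviated together (correlations 0.298, 0.349 and 0.151), and libraries of the same KI clone (0.147 to 0.389) share their line. The main fits held no block for either, and this pairing entered only the alternative with a replicate block. Alternatives were DESeq2 1.42.0, other scalings, filters, summed transcripts, a 2-fold limit, fits of the compared groups alone, a replicate block and leaving out each library. Simulated libraries were independent, and 100 genes above a minimum of reads were changed at each fold. The rates therefore do not cover genes with few reads or settings with many changed genes. On these data, 84% of 2-fold and 94% of 4-fold changes were recovered and 6.3% of calls were false for extraembryonic endoderm (15206 genes). For neural day 8 (16161 genes) these were 90%, 99% and 9.1%, for E9.5 (15212 genes) 78%, 98% and 3.8%, for the averaged EB course (16059 genes) 65%, 95% and 5.9%, and for KI EBs of day 10 against day 4 (15336 genes) 69%, 90% and 11.7%.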

Additional observations from a re-analysis of the deposited data

Results flagged for a closer look

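The KI effect differed between extraembryonic endoderm and trophectoderm by the interaction test of edgeR in 5 members, with log2 differences of -2.11 in Foxa1, -1.42 in Foxa2, -3.29 in Foxa3, -1.87 in Sox17 and -3.11 in Sox7. Alternative fits gave -3.93 to -2.05 in Foxa3 and -3.9985 to -2.50 in Sox7. Between neural days 16 and 8 it differed in Sox17, by 2.37. That value rests on few reads at day 16, and leaving out 1 library gave 1.83 to 3.80.

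Some members moved opposite to extraembryonic endoderm in every library of a culture, and these differences between cultures were not tested. Foxa1 was higher in KI at neural day 8 (log2 fold change 1.94), at neural day 16 (1.86) and in EBs of day 10 (1.78, the mean log2 ratio of both clones). Foxa2 was higher at neural day 16 (2.29) and in EBs of day 10 (2.20). In EBs of day 10 the mean log2 ratio was 2.62 in Foxa3, 2.63 in Hnf4a and 2.46 in Sox17. Sox7 was higher in KI stem cells, by 1.18.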

How the results depend on the processing

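Of 90 results on single members, 55 kept direction and call under every alternative fit and 35 did not; of 1160 such fits, 1094 kept both. The 2-fold limit is not part of this tally and follows as counts. For changes described below the cause was not tested. All leave-outs that leave an arm with 1 library assume that it varies like the other groups.

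A 2-fold limit cut the called genes to 1708 of 5520 in extraembryonic endoderm, 2545 of 7904 in trophectoderm, 2047 of 5486 in their interaction, 4150 of 10049 between the flox lineages, 1330 of 3202 at neural day 8, 2008 of 7704 at day 16, 2189 of 5450 in the neural interaction, 6961 of 12678 and 8052 of 13130 between the neural days in flox and KI, 214 of 843 at E8.5, 920 of 4560 at E9.5, 319 of 1024 between the stage effects, 1037 of 3738 between control stages, 4010 of 7882 from KI ESCs to day 4 and 6412 of 11492 from day 4 to day 10. Members called then numbered 0 in trophectoderm, 0 at E8.5, 1 at E9.5 and 0 between control stages.

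With the replicate block, 1304 genes were called at E8.5 and 1547 between the stage effects, with 5 members at E9.5 and 1 between the stage effects; other member counts did not change. At E9.5 and in flox cultures the samples share only a number. Fits of the compared groups alone called 5 members at E9.5 and 0 between control stages. Summed transcripts left 1 member at E8.5. DESeq2 called 778 genes in the EB course against 121. Without the ESC libraries, Hnf4a in the EB course reversed to 1.07.

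Leaving out 1 library gave 3641 to 4967 genes in extraembryonic endoderm, 1896 to 2362 at neural day 8, 3621 to 6038 in the neural interaction, 363 to 755 at E8.5, 607 to 1175 between the stage effects, 26 to 332 in the EB course and 4982 to 5398 from KI ESCs to day 4. Members called ranged from 1 to 2 in trophectoderm, at neural day 16 and at E8.5, 0 to 2 in the neural interaction, 0 to 3 between control stages and 0 to 1 in the EB course. Directions reversed within these ranges of log2 values, none of which was called with all libraries; Foxa3 and Sox7 in trophectoderm were called at their lowest value and Foxa2 in the EB course at its highest. In trophectoderm they were -1.71 to 0.16 (Foxa3) and -1.36 to 0.14 (Sox7), and for Sox17 at neural day 16 -0.41 to 1.56. In the neural interaction they were -0.28 to 0.14 (Foxa1) and -0.058 to 1.02 (Sox7). At E8.5 they were -0.38 to 0.26 (Foxa1), -0.0675 to 0.497 (Foxa2), -0.88 to 0.27 (Foxa3) and -2.20 to 0.41 (Hnf4a). Sox17 between the stage effects had -0.0488 to 0.365, and Foxa2 between control stages -0.30 to 0.26. In the EB course the ranges were -0.98 to 1.71 (Foxa1), -1.0025 to 2.22 (Foxa2), -2.33 to 1.104 (Hnf4a), -0.53 to 2.29 (Sox17) and -0.0138 to 1.18 (Sox7). Upper-quartile scaling moved the median of all genes by -0.1159 at neural day 16 and by -0.177 between the KI neural days.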
